A study of Brassica carinata x Brassica rapa with 9 samples.

Results

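The 200 genes described here were those most depleted in 1 of the 3 Anther libraries of a synthetic Brassica allohexaploid. They were chosen among 100804 genes by their values in the Anther libraries: 22293 genes had a mean of at least 10 FPKM in Anther (a read density, scaled to gene length and library total), these were ranked by the smaller of Anther-1 and Anther-3 over Anther-2, with 0.1 FPKM added to each, and the first 200 were kept. The rule thus fixed that Anther-2 is low and that Anther-1 and Anther-3 are high, and these values are given as a description without a test. Levels in ovule and leaf were not used by the rule.

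The allohexaploid has the genotype AABBCC, combining the A-genome from B. rapa with the genomes B and C from B. carinata. All 9 libraries share this genotype. Anther stands for anthers taken between meiosis and pollen maturity, Ovule for ovules taken between meiosis and a mature embryo sac, and Leaf for the young leaf. Each tissue has 3 libraries, which the paper calls biological replicates. The male parent was B. carinata by the labels and B. rapa by the paper. No label states how far the flowers of a given library had developed within the stated span, and a library of whole anthers holds every cell type of the anther. In such bulk samples, fewer cells of a type and less RNA per cell cannot be told apart.

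In an anther, male meiosis comes first and yields microspores. The tapetum, the nurse layer around them, then makes the precursors of sporopollenin, the polymer of the outer pollen wall, and the pollen matures after the tapetum has broken down. Many transcripts of the last steps are known in Arabidopsis to be abundant in pollen and scarce in other organs, so that the stage at which anthers are collected sets which genes are seen.

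The deposited values behave as whole reads times a fixed step, and the reads behind each value were read back from it. The reads on genes came to 15076894 to 15525638 per Anther library, 15113765 to 15516175 per Ovule library and 8675189 to 10153664 per Leaf library. Anther-2 was the shallowest Anther library, by 0.870% of the reads of Anther-1. A count of 0 reads in a library was taken to allow up to 3 reads, and a fold against such a value is given as a lower bound against 3 reads in that library. These floors cover counting error only.

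As a group, the 200 genes were abundant in Anther-1 and Anther-3 and nearly missing from Anther-2. Their median level was 57.5 FPKM in Anther-1, 42.6 FPKM in Anther-3 and 0.254 FPKM in Anther-2. Summed over the 200 genes, the level was 31979 FPKM in Anther-1, 21960 FPKM in Anther-3 and 486 FPKM in Anther-2. This was 3.04%, 2.06% and 0.0441% of all FPKM in the library. Among the 500 most abundant genes, 44 of the 200 were found in Anther-1, 33 in Anther-3 and 0 in Anther-2. No read was found in Anther-2 for 60 of the 200 genes (30%), against 0.422% of the genes with a mean of at least 10 FPKM in Anther.

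**Figure D1:**
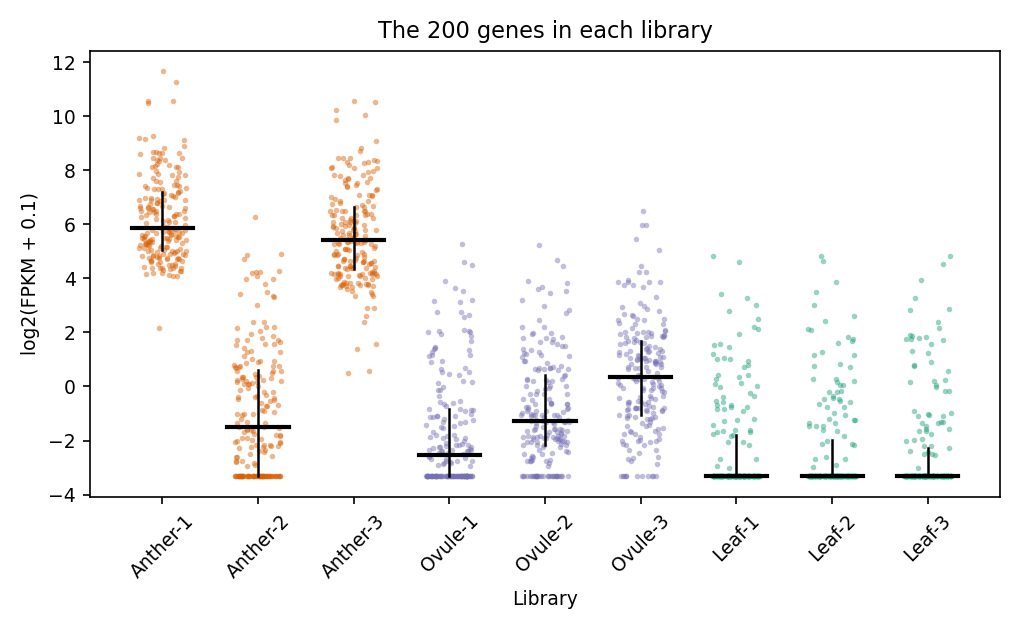
The 200 genes in each of the 9 libraries, as log2(FPKM + 0.1), with 1 point per gene, a thick line at the median and a vertical line from the lower to the upper quartile. The medians stand at 57.5 FPKM in Anther-1, 0.254 FPKM in Anther-2 and 42.6 FPKM in Anther-3, and all 3 Leaf medians are at 0.

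The ratio of the rule ran from 14928 for the first gene to 14.0 for the last, with a median of 66.5. The same ranking with another library as the low one gave far fewer genes past the last ratio: 11 with Anther-1 as the low library and 0 with Anther-3. When genes were ranked for being highest in Anther-2 instead, 2 genes passed it. At a ratio of at least 4, there were 526 genes low in Anther-2, 97 low in Anther-1, 0 low in Anther-3 and 4 highest in Anther-2. The large ratios thus lay on the side of low values in Anther-2.

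**Figure D2:**
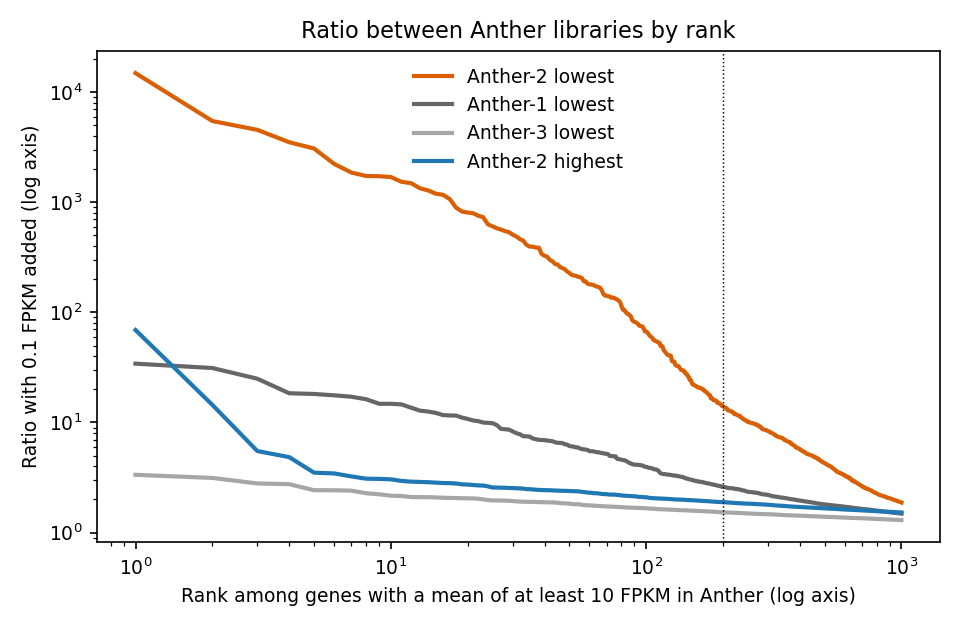
Ratio between Anther libraries (log axis, 0.1 FPKM added) against rank (log axis) among genes with a mean of at least 10 FPKM in Anther, for 4 rankings. The line with Anther-2 as the lowest library stands at 14.0 at rank 200 (dotted), against 2.59 with Anther-1 lowest, 1.53 with Anther-3 lowest and 1.89 with Anther-2 highest.

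The gene with the highest ratio, Bol014756 of the C-genome, had 3263 FPKM in Anther-1, 1493 FPKM in Anther-3 and 0 in Anther-2. These values stand on 17164, 8012 and 0 reads, and the smaller of the high libraries was at least 2588-fold above Anther-2. It was also the most abundant of the 200 in Anther. In Ovule it had 6.72, 9.02 and 90.3 FPKM and in Leaf it had no read.

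Other genes at the head of the ranking showed the same contrast with fewer reads in Ovule. BniB049103 had 558 FPKM in Anther-1, 548 FPKM in Anther-3 and 0 in Anther-2, which was at least 1932-fold. In Ovule it had 0, 1.48 and 3.48 FPKM, and in Leaf no read was found. Bra020712 had 575 and 455 FPKM in Anther-1 and Anther-3 and 0 in Anther-2, at least 700-fold, and BniB021300 had 612 and 308 FPKM in them and 0 in Anther-2, at least 474-fold. Both genes gave a recovered length of 306 bases. Bra024207 had 475 and 351 FPKM in Anther-1 and Anther-3 and 0 in Anther-2, at least 752-fold.

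Bol004980 and Bra012848, both 360 bases long, had 395 and 390 FPKM in Anther-1, 223 and 170 FPKM in Anther-3, and no read in Anther-2. BniB004596 had 279 FPKM in Anther-1, 187 FPKM in Anther-3 and 0 in Anther-2. The 10 highest ratios also included a pair of genes of 975 bases. BniB045366 had 232, 173 and 0 FPKM in Anther-1, Anther-3 and Anther-2, and Bra015740 had 332 and 290 FPKM in Anther-1 and Anther-3 and 0.0679 FPKM, which is 1 read, in Anther-2. None of these identifiers carries a gene name or role in the sources used here.

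Several of the most abundant of the 200 were reduced in Anther-2 without being lost. Bra038907 had 2445 FPKM in Anther-1, 934 FPKM in Anther-3 and 28.7 FPKM in Anther-2, where 156 reads were counted. Bra037505 had 1526, 1524 and 78.1 FPKM in Anther-1, Anther-3 and Anther-2, the highest Anther-2 value of the 200. Bra018697 of the A-genome had 1500 and 1209 FPKM in Anther-1 and Anther-3 and 29.6 FPKM in Anther-2. Bol045161 of the C-genome, of the same 930 bases, had 1445 and 1046 FPKM in them and 18.7 FPKM in Anther-2. Bol041180 had 584, 422 and 26.4 FPKM in Anther-1, Anther-3 and Anther-2. The smaller of the high libraries was thus 16.0-fold to 55.9-fold above Anther-2 in these 5 genes. In Anther-2, 68 of the 200 genes reached 1 FPKM and 15 reached 10 FPKM.

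Anther-1 and Anther-3 were not alike either. Of the 200 genes, 185 were higher in Anther-1 than in Anther-3 (92.5%), against 52.4% of the genes with a mean of at least 10 FPKM in Anther. The median of Anther-1 over Anther-3 was 1.41, and 156 genes lay within 2-fold. In 7 genes Anther-3 was more than 4-fold below Anther-1, and in 1 gene, BniB006845, Anther-1 was more than 4-fold below Anther-3, with 4.35 FPKM in Anther-1 and 47.5 FPKM in Anther-3. The order of the summed levels was therefore Anther-1, then Anther-3, then Anther-2.

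The limit of 200 did not fall at a break in the ratios. Just inside it were Bol026582 (ratio 14.14), Bol041101 (14.14) and Bra010803 (13.99). Just outside were Bol020904 (13.88), Bra033117 (13.84) and Bra015551 (13.70). Bra010803 had 165 reads (36.4 FPKM) in Anther-1 and 6 reads in Anther-3, against 0 reads in Anther-2, so that the smaller value was only at least 1.94-fold above Anther-2. In 191 of the 200 genes both Anther-1 and Anther-3 reached 10 FPKM.

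The 200 genes were spread over the 3 subgenomes much as the genes they were drawn from. The A-genome gave 76 of them (38%), the B-genome 68 (34%) and the C-genome 56 (28%). Of the genes with a mean of at least 10 FPKM in Anther, A, B and C held 37.8%, 31.8% and 30.4%. The median recovered length was 835.5 bases, against 885 bases. A gene of equal length from another subgenome was in the list for 70 of the 200 genes, as for the pairs named above. Among the 200 genes ranked highest in Anther-2 the same held for 54. Equal length does not show that genes are related copies, and how reads shared by near-identical copies were counted is not given in the sources used here.

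Most of the 200 genes were low in ovule and had no read in leaf. The mean level was below 1 FPKM in Ovule for 123 genes (61.5%) and in Leaf for 176 genes (88%). Among all genes with a mean of at least 10 FPKM in Anther, 5.78% were below 1 FPKM in Ovule and 9.85% in Leaf. The 200 genes ranked highest in Anther-2 lay between, with 37% below 1 FPKM in Ovule and 60% in Leaf. No read in any Leaf library was found for 124 of the 200 genes (62%), against 4.76% of the genes with a mean of at least 10 FPKM in Anther. No read in any Ovule library was found for 7 genes, and 6 had none in either tissue.

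Summed over the 200 genes, the Ovule libraries held 258, 327 and 781 FPKM (456 ± 284, SD, n = 3) and the Leaf libraries 145, 149 and 150 FPKM (148 ± 2.77, SD, n = 3). The median gene stood in Ovule at 0.822% of its mean in Anther-1 and Anther-3, and in Leaf at 0. In 198 of the 200 genes the mean of Anther-1 and Anther-3 was at least 2-fold above the mean of Ovule, and in 198 it was at least 2-fold above that of Leaf. Of all genes, 30.1% and 49.0% were. Both of these libraries were above every Ovule library in 197 genes and above every Leaf library in 198, while 28.5% and 50.7% of all genes met the same condition. The rule selects for high values in these libraries, so nothing is read from these counts.

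The rule made Anther-2 low, so where it falls against Ovule and Leaf was set in part by the choice. The sums and counts that follow are a description, and nothing is read from them. The 486 FPKM of the 200 genes in Anther-2 stood beside 258 to 781 FPKM in the Ovule libraries and 145 to 150 FPKM in the Leaf libraries. Anther-2 was above every Ovule library in 64 of the 200 genes and below every Ovule library in 58, where 35.3% and 33.7% of all genes were. It was above every Leaf library in 116 of the 200 and below every Leaf library in 21, where 54.2% and 22.9% of all genes were.

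Calls of Anther against Ovule and Leaf are given as a description only, since the rule set the Anther values and with them how these counts move when Anther-2 is left out. With all 9 libraries in a limma fit on log2(FPKM + 0.1), 159 of the 200 genes passed the filter of 0.5 FPKM in 3 libraries. Of these, 70 were called higher in Anther than Ovule and 0 lower, where a call needs a 2-fold difference and an adjusted p of no more than 0.05. Over all genes tested, 14.3% were called higher and 14.3% lower. Without Anther-2, 140 of 144 tested genes were called higher, where 10.4% of all genes were. Without Anther-1 it was 38 of 107, where 9.01% of all genes were, and without Anther-3 again 38 of 107, where 9.27% were. For Anther against Leaf, 141 of the 159 were called higher, where 38.4% of all genes were, and without Anther-2 it was 140 of 144, where 34.6% of all genes were. Without Anther-1 it was 68 of 107, where 34.2% of all genes were, and without Anther-3 it was 67 of 107, where 35.3% were.

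The 3 Ovule libraries were not alike in these genes. As a percentage of the mean of Anther-1 and Anther-3, the median gene stood at 0.113% in Ovule-1, 0.451% in Ovule-2 and 1.69% in Ovule-3. Ovule-3 was the highest Ovule library in 162 of the 200 genes (81%), against 36.9% of the genes with a mean of at least 10 FPKM in Anther. The full order of Ovule-3 above Ovule-2 above Ovule-1 was seen in 123 genes (61.5%), against 16.7%. In 77 genes there was no read in Ovule-1 and at least 1 read in Ovule-3, and in 2 genes the reverse. Without the 8 genes highest in Ovule, the summed level was still 123 FPKM in Ovule-1, 181 FPKM in Ovule-2 and 442 FPKM in Ovule-3.

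Annotated genes of the tapetum and pollen wall had the same order in Ovule. The study names 51 genes of these steps by identifier, in lists chosen on these libraries, so the lists are not independent evidence. The 15 tapetum regulators, copies of the transcription factor genes AMS, MYB80 and TDF1, summed to 0.914 FPKM in Ovule-1, 2.53 FPKM in Ovule-2 and 9.13 FPKM in Ovule-3, although TDF1 alone was highest in Ovule-2. The 9 pollen wall genes, copies of MS2, a fatty acyl reductase gene, and ABCG26, a transporter gene, summed to 0.0315, 11.6 and 34.2 FPKM in Ovule-1, Ovule-2 and Ovule-3. The 27 genes of sporopollenin synthesis summed to 39.8, 52.8 and 102 FPKM in the same order. The 4 lists of meiosis genes and the list of 23 female gametophyte genes did not have this order, and the female list summed to 260, 228 and 244 FPKM. Whether RNA from anthers was present in the Ovule libraries was not tested, nor was the part it would have in the Ovule levels of the 200 genes. Without Ovule-3, 153 of the 200 genes had an Ovule mean below 1 FPKM.

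**Figure D3:**
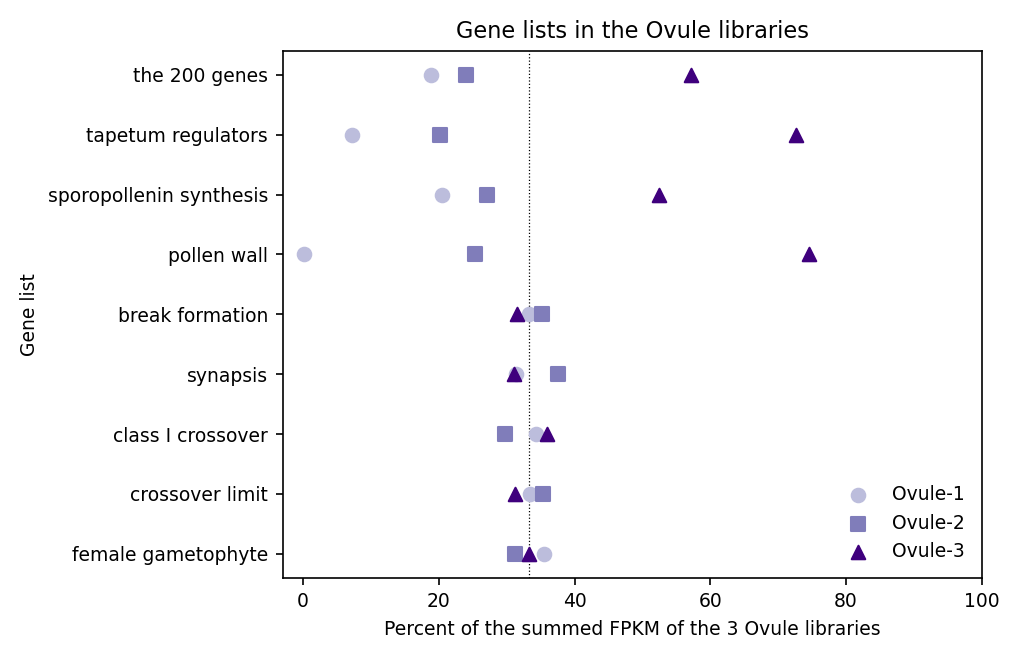
Percent of the summed FPKM of the 3 Ovule libraries that each Ovule library holds, for the 200 genes and for 8 lists of genes named by the study. The dotted line marks equal levels. Ovule-3 (triangles) is far to the right for the 200 genes, where the sums are 258, 327 and 781 FPKM, and for the 3 lists of tapetum and pollen wall genes, and near the line for the other 5 lists.

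A minority of the 200 genes had a steady level in ovule. At least 1 FPKM in each Ovule library was reached by 35 genes, and in 22 of them the highest Ovule library was less than 2-fold above the lowest. The genes with the highest Ovule means are given next, whether or not they were among these 22. BniB001356 had the highest Ovule mean of the 200. It stood at 413 FPKM in Anther-1, 272 FPKM in Anther-3 and 18.1 FPKM in Anther-2, at 38.9, 37.6 and 62.0 FPKM in Ovule, and at 1.91, 1.68 and 3.54 FPKM in Leaf. Its Anther-2 value was thus below all its Ovule values and above all its Leaf values. Bra023441, not among the 22, had 2.85 FPKM in Anther-2, against 24.1, 25.4 and 62.9 FPKM in Ovule and 0.914, 0.583 and 0.880 FPKM in Leaf.

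Bol041101 had 2.32 FPKM in Anther-2, against 22.4, 22.0 and 18.7 FPKM in Ovule and 0.492, 0.768 and 1.39 FPKM in Leaf. Its Ovule mean was 52.0% of its mean in Anther-1 and Anther-3. Bra009358, more than 2-fold higher in Ovule-3 than in Ovule-1, had 12.4, 14.8 and 33.0 FPKM in Ovule and 0.681, 0.228 and 0.413 FPKM in Leaf. BniB042378 had 11.5, 11.5 and 14.5 FPKM in Ovule and a mean of 0.842 ± 0.312 FPKM in Leaf (SD, n = 3). The other genes among the 8 highest in Ovule were Bol014756 and Bra038907, which had no read in Leaf and were highest in Ovule-3, and BniB042832, which was also among the 8 highest in Leaf. Bra038907 had 3.76, 14.2 and 44.1 FPKM in Ovule.

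Few of the genes were expressed in leaf. At least 1 FPKM in each Leaf library was reached by 20 genes, and 3 genes had a Leaf mean of at least 10 FPKM. The 8 genes highest in Leaf held 64.4% to 68.6% of the summed Leaf level. Bra013175 had 30.3, 0.684 and 16.8 FPKM in Anther-1, Anther-2 and Anther-3, against 0, 0 and 0.171 FPKM in Ovule and 28.0, 28.0 and 28.3 FPKM in Leaf. It was thus low in Anther-2 and in Ovule, and its Leaf mean was 119% of its mean in Anther-1 and Anther-3.

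Bra037894 had 29.7, 0.917 and 27.6 FPKM in Anther-1, Anther-2 and Anther-3, against 2.29, 2.18 and 3.99 FPKM in Ovule and 24.0, 25.1 and 23.1 FPKM in Leaf. BniB018740 had 0.537, 1.08 and 1.93 FPKM in Ovule and 10.7, 14.4 and 15.2 FPKM in Leaf. BniB037285, with no read in Anther-2, had 0.127, 0.385 and 0.850 FPKM in Ovule and 6.91, 6.04 and 7.12 FPKM in Leaf. These genes thus had more reads in Leaf than in Anther-2, where all 200 were low by choice.

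Ovule and Leaf were compared by limma on log2(FPKM + 0.1) over these 6 libraries, for genes with at least 0.5 FPKM in 3 of them. Of the 200 genes, 143 did not pass this filter, and 57 were tested. Of the 57, 34 were called higher in Ovule and 12 higher in Leaf, where 38.3% and 15.9% of all genes tested were, and 11 were not called. Leaf never reached 0.5 FPKM in 19 of the 57 and Ovule never did in 2, so that these passed only through the tissue where they are high. In the 36 genes with at least 0.5 FPKM in a library of each tissue, 15 were higher in Ovule, 10 higher in Leaf and 11 not called. Of the 60303 such genes in all, 34.6% and 13.5% were called higher in Ovule and in Leaf. Some of the 36 would also have passed the filter through the higher tissue alone. Without the filter, 53 of the 200 genes (26.5%) were called higher in Ovule and 8 (4%) higher in Leaf, where 27.4% and 11.7% of all genes were. Without the filter, the share called higher in Ovule was thus close to that of all genes, and the share higher in Leaf was below it. With the filter, 59.6% of the 57 were called higher in Ovule, in part through genes that passed in Ovule alone.

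The median log2 fold change of Ovule over Leaf was 2.09 over the 57 genes and 0.69 over all genes tested. The 57 include the 19 genes that passed the filter through Ovule alone, against 2 through Leaf alone. The filter thus bears on this median, and no excess in Ovule is read from it. With median-of-ratios scaling the median was 1.58 over the 57 genes and 0.05 over all genes tested. Of all genes tested, 21.5% were then called higher in Ovule and 23.2% higher in Leaf, and of the 57 genes 30 and 15 were. When 1 Ovule library was left out, no gene could pass the filter of 3 libraries through Ovule alone. The 19 genes in which Leaf never reached 0.5 FPKM were then not tested. Leaving out 1 Ovule library left 36 to 38 of the 200 genes to test, of which 14 to 17 were called higher in Ovule and 10 to 12 higher in Leaf. In these fits 32.3% to 33.2% of all genes were higher in Ovule and 17.0% to 17.6% higher in Leaf. The 14 were left without Ovule-2, with 15 without Ovule-3 and 17 without Ovule-1. The median of the genes tested among the 200 was then below that of all genes. It was 0.51 without Ovule-1, 0.52 without Ovule-2 and 0.43 without Ovule-3, against 0.57, 0.56 and 0.58 over all genes tested. These lower counts and medians were set in part by the filter, as were the 34 calls and the median of 2.09. They therefore do not show how far the calls depend on single Ovule libraries, and neither median is taken as the sounder.

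**Figure D4:**
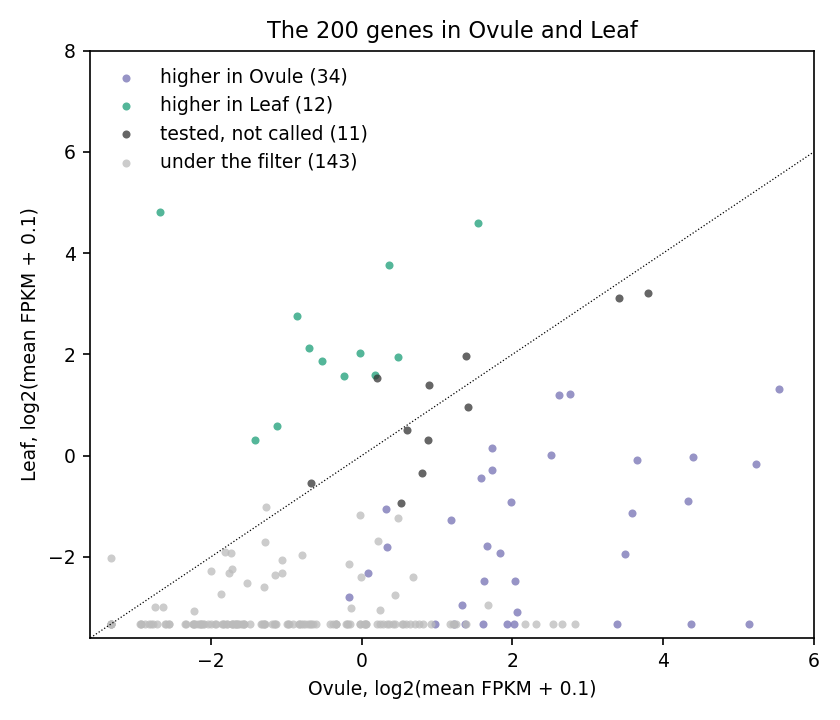
Mean level of the 200 genes in Ovule (horizontal) and Leaf (vertical), as log2(mean FPKM + 0.1), coloured by the call of the limma fit. The dotted line marks equal levels. The 34 genes higher in Ovule lie below the line and the 12 higher in Leaf above it, and most of the 143 genes under the filter lie along the bottom, at 0 in Leaf.

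Among the genes called higher in Ovule, those with the largest fitted fold changes passed the filter through Ovule alone, and their fitted values depend on the 0.1 FPKM added, so levels and bounds are given for them in place of a test. The Ovule mean of Bol014756, described above, was at least 38.3-fold above the floor in Leaf, and that of Bra038907 at least 23.4-fold. Bol021616 had 6.58, 10.9 and 13.5 FPKM in Ovule and no read in Leaf, at least 7.32-fold. In Anther-1 and Anther-3 it had 21.0 and 14.0 FPKM, both above all its Ovule values, and in Anther-2 it had 1 read.

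BniB037713 had 6.16, 5.45 and 21.8 FPKM in Ovule and 0.143, 0.334 and 0 FPKM in Leaf, which is 3 reads in all. Where both tissues reached 0.5 FPKM, the largest fold change was that of Bra023441. It had a log2 fold change of 5.27 (SE 0.38, adjusted p = 1.9e-05 by limma). The 34 genes were spread over the subgenomes, with 11 on A, 12 on B and 11 on C.

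Among the genes called higher in Leaf, Bra013175 passed the filter through Leaf alone, with 1 read in Ovule against 309 reads in Leaf, and its fitted value depends on the 0.1 FPKM added. BniB018740 reached 0.5 FPKM in each Ovule library and had a log2 fold change of Ovule over Leaf of -3.54 (SE 0.41, adjusted p = 0.00017 by limma). The 3 Leaf libraries alone met the filter for BniB037285, described above, and for Bra030319 and BniB006845. Of the Ovule libraries, only Ovule-3 reached 0.5 FPKM in these genes. Their fitted values depend on the 0.1 FPKM added, so levels are given in place of a test. Bra030319 had 0, 0 and 1.79 FPKM in Ovule and 3.77, 3.44 and 3.41 FPKM in Leaf. BniB006845 had 0, 0.124 and 2.54 FPKM in Ovule and 4.44, 4.32 and 3.21 FPKM in Leaf.

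BniB006845 lost its call when any library but Ovule-3 was left out. Bra037894 had a log2 fold change of -3.10 (SE 0.23, adjusted p = 2.0e-05 by limma). Of the genes named for the highest ratios, Bra015740 and BniB045366 were called higher in Leaf, and for them too the 3 Leaf libraries alone met the filter. Bra015740 had 0, 0.731 and 0.814 FPKM in Ovule and 4.24, 5.20 and 3.32 FPKM in Leaf. BniB045366 had 0.0660, 0.465 and 0.542 FPKM in Ovule and 1.61, 1.54 and 1.07 FPKM in Leaf. The gene Bra012848, also among the highest ratios, had 0.894, 1.80 and 8.45 FPKM in Ovule and no read in Leaf.

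A few genes did not differ between ovule and leaf beyond the thresholds. BniB042832 had 14.8, 12.2 and 14.4 FPKM in Ovule and 9.54, 11.2 and 6.95 FPKM in Leaf, with a log2 fold change of 0.60 (SE 0.19, adjusted p = 0.021 by limma), less than 2-fold. BniB002280 had 8.96, 7.70 and 15.1 FPKM in Ovule and 7.89, 8.01 and 9.67 FPKM in Leaf, with 0.25 (SE 0.25, adjusted p = 0.38). With median-of-ratios scaling both values were below 0, at -0.05 and -0.40. In Anther-2 these genes had 3.21 and 2.88 FPKM, below each of their Ovule and Leaf values.

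Genes with known roles in the anther were set beside the 200 genes in the same libraries. The meiosis genes, the tapetum regulators and the wall genes that the study names can be placed in that order from their known roles in Arabidopsis. The lists of sporopollenin synthesis and of the pollen wall both concern the outer wall and are not placed one after the other. No gene of the study's lists was among the 200. Of the meiosis genes, which act first, all 27 of break formation, synapsis and class I crossovers were highest in Anther-2, as were 8 of the 10 that limit crossovers. Genes of break formation summed to 47.1 FPKM in Anther-2, against 18.5 and 20.4 FPKM in Anther-1 and Anther-3, and genes of synapsis to 170.1 FPKM, against 55.1 and 69.8 FPKM. Genes of class I crossovers stood in Anther-2 at 298% of the mean of Anther-1 and Anther-3, and genes that limit crossovers at 157%. Both exceptions were copies of RECQ4A, a helicase gene that limits crossovers. Bra031741 had 1.39 FPKM in Anther-2, against 1.28 and 1.46 FPKM in Anther-1 and Anther-3, and Bol022020 had 2.07 FPKM in Anther-2, against 2.18 and 2.31 FPKM in them.

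The regulators of the tapetum were about level. Copies of TDF1, which acts early in the tapetum, stood in Anther-2 at 198% of the mean of Anther-1 and Anther-3, those of AMS, which acts after TDF1, at 110%, and those of MYB80, which acts after AMS, at 90.4%. The 15 genes summed to 1874 FPKM in Anther-2, against 1851 FPKM in Anther-1 and 1592 FPKM in Anther-3.

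The enzymes and transporters of the pollen wall were lower in Anther-2. Sporopollenin synthesis genes stood there at 62.9% of the mean of Anther-1 and Anther-3, and 23 of the 27 were lowest in Anther-2. Summed over the copies of each gene, the fatty acid hydroxylase genes were the lowest of this list, with 18.4% for CYP703A2 and 29.5% for CYP704B1. LAP6, a polyketide synthase gene, stood at 36.9%, while ACOS5, a fatty acyl-CoA synthetase gene, LAP5, another polyketide synthase gene, and the reductase genes TKPR1 and TKPR2 stood at 73.3% to 82.2%. Copies within a sum could differ. Of the 4 copies of TKPR2, 3 were lowest in Anther-2, such as Bra008822 with 40.5 FPKM there, against 118 and 161 FPKM in Anther-1 and Anther-3. The other, BniB031910, was highest in Anther-2, with 472 FPKM against 329 and 403 FPKM. MS2 stood at 15.1% and ABCG26 at 38.0%, and all 9 genes of the pollen wall list were lowest in Anther-2.

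The 200 genes summed in Anther-2 to 1.80% of the mean of Anther-1 and Anther-3. They were chosen by this contrast and hold no gene of the lists, so that their place below the lists was fixed by the rule and says nothing of their stage. The gene of the lists that came nearest to them in the ranking was Bra032631, a copy of CYP703A2, at rank 275 with a ratio of 9.41. The female gametophyte genes, which act in the ovule, stood at 97.8%. With median-of-ratios scaling, each of the 8 lists stayed on the same side of 100%, and the female list stood at 94.8%. Leaving the 200 genes and the female list aside, the meiosis lists thus stood above the tapetum regulators, although TDF1 alone stood above the genes that limit crossovers. As sums, the regulators stood above sporopollenin synthesis, and this above the pollen wall genes. Single genes did not keep the last order: CYP703A2 (18.4%), CYP704B1 (29.5%) and LAP6 (36.9%) stood below ABCG26 (38.0%). No order in time is read between sporopollenin synthesis and the pollen wall list. The paper names the meiosis genes for male and female development alike. The step at which the 200 genes act was not tested, since none of them is annotated in the sources used here and no gene named there marks mature pollen. The share of early and late anthers in each Anther library was not tested either, and it cannot be told apart from other differences between single libraries.

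**Figure D5:**
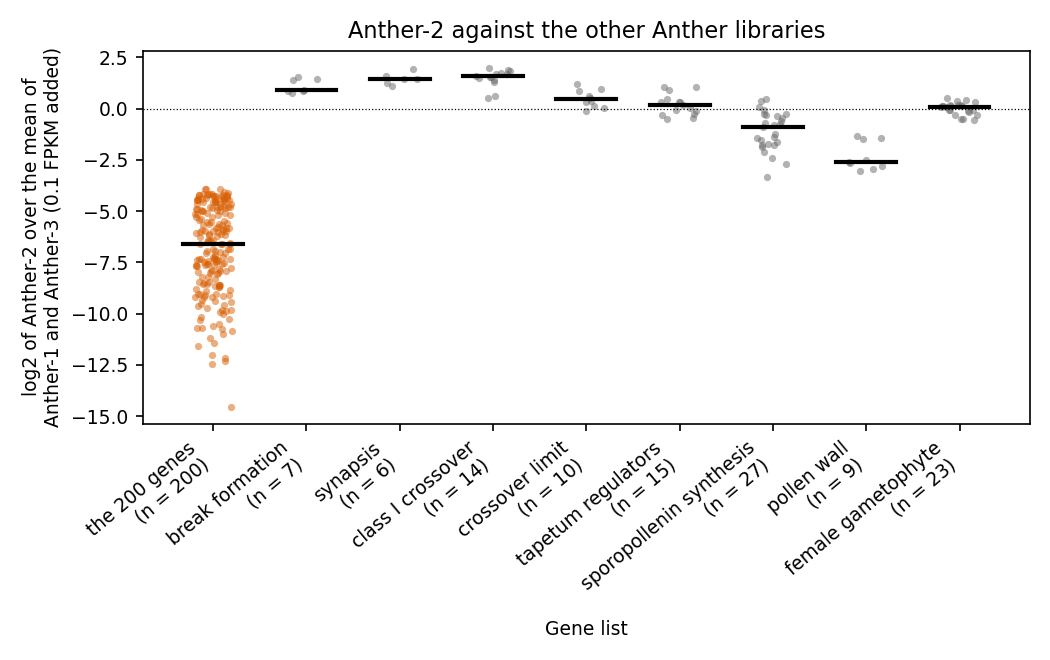
Level in Anther-2 over the mean of Anther-1 and Anther-3 on the log2 scale, with 0.1 FPKM added, for the 200 genes and 8 lists of genes named by the study, with 1 point per gene and a line at the median. The dotted line marks equal levels. Meiosis lists lie above the line, pollen wall genes below it, and the 200 genes, chosen for low values in Anther-2, lie lowest, with sums at 298%, 21.6% and 1.80% of the other libraries for class I crossovers, the pollen wall and the 200 genes.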

How the data were processed

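RNA-Seq values of 9 libraries were used, 3 each from Anther, Ovule and Leaf. The deposited table holds FPKM that the authors made from filtered reads: HISAT2 2.1.0 placed the reads on the joined references of the A-, B- and C-genome species, and HTSeq 0.6.0 counted them per gene. The sources state no further scaling and give StringTie 1.3.2 no role. An identifier starting with Bra was taken as an A-genome gene, with BniB as a B-genome gene and with Bol as a C-genome gene.

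Whole reads were recovered from the FPKM steps for 100% of the 100804 genes, within a tolerance of 0.01 read. In simulated data all reads were recovered for 97.7% of genes. The recovery chose the library totals and the gene lengths so that lengths are divisible by 3. This held in 99.99% of genes, which therefore does not show that they are coding lengths. Recovered reads served for depth, floors and 1 alternative, not for the main test.

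Ovule and Leaf were compared on log2(FPKM + 0.1) with limma 3.58.1 (R 4.3.3), with an eBayes trend and without the Anther libraries, whose spread the ranking had used. Genes reaching 0.5 FPKM in 3 or more libraries were tested, and a call needed a 2-fold difference and p no higher than 0.05 after Benjamini-Hochberg adjustment over all genes tested. Fold changes of low genes are understated on this scale. Anther was set against Ovule and Leaf in 1 fit over 9 libraries. The script was tested on simulated data. Rankings and figures were made in Python 3.11.15 (numpy 2.4.6, pandas 2.3.3, matplotlib 3.10.9).

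Genes named are the 10 with the highest ratio, the 10 highest in Anther, the 8 highest in Ovule, the 8 highest in Leaf, the 3 on each side of the limit, and the 5 with the largest fold change in each direction among genes called between Ovule and Leaf whose libraries do not overlap. BniB006845 also stands out between Anther-1 and Anther-3, which was seen after the values were known. Genes that are not members are named only from the study's lists, of which 37 are meiosis genes, 51 tapetum and pollen wall genes and 23 female gametophyte genes. The members and lists were chosen with earlier results of these data known. The alternatives were other pseudocounts, filters, scaling and rankings, a replicate block, limma treat, limma voom, and leaving out each library. Genome sequence and annotation were not used.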

Additional observations from a re-analysis of the deposited data

How the results depend on the processing

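The number of genes higher in Ovule than Leaf, 34, of 57 tested, was 21 of 159 in 1 model over 9 libraries and 53 of 200 without the filter, and 14 to 34 (of 36 to 55) when 1 library was left out. The share over all genes was 38.3%, and 36.8%, 27.4% and 32.3% to 39.8% in these. The number higher in Leaf, 12, was 3 of 159 in 1 model over 9 libraries and 5 of 57 with limma treat, and 9 to 12 when 1 library was left out. The share over all genes was 15.9%, and 14.8%, 11.5% and 12.1% to 17.6% in these. The median log2 fold change, 2.09, was 1.12 with a pseudocount of 1, 1.54 without the filter, 1.58 with median-of-ratios scaling, 1.52 with limma voom, and 0.43 to 2.49 when 1 library was left out. Over all genes tested the median was 0.69, and 0.53, 0.41, 0.05, 0.03 and 0.56 to 0.74 in these. Genes that passed the filter through Ovule alone enter the 2.09. Limma voom on recovered reads called 28 of 57 genes for Ovule and 14 for Leaf, where 20.8% and 23.6% of all genes were. The number higher in Anther than Ovule, 70 of 159, was 38 of 107 to 140 of 144 without 1 Anther library. The number higher in Anther than Leaf, 141 of 159, was 67 of 107 to 140 of 144 without 1 Anther library, and 80 of 99, where 38.2% of all genes were, when Ovule was left out of the fit, where fewer genes reach the filter. Leaving out 1 library also kept genes that reach the filter in that tissue alone from being tested. For the other changes the cause was not tested.

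The correlation of same-numbered deviations ran from -0.09 to 0.16, and that of Anther-3 with Ovule-3 was the highest of all pairs. These values show no clear pairing by library number but cannot exclude one. A replicate block left these counts at 34 for Ovule and 12 for Leaf, with 72 higher in Anther than Ovule and 139 higher in Anther than Leaf.

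Of the named genes tested between Ovule and Leaf, 20 in all, 254 of 281 values under alternatives kept their direction and their side of the threshold. Directions turned only for 2 genes that were not called. BniB042832 was at -0.053 with median-of-ratios scaling and at -0.061 with limma voom. BniB002280 was at -0.40 and -0.41 in these, and ran from -0.031 (without Ovule-3) to 0.45 (without Ovule-2) when 1 library was left out. Another ranking kept 182 of the 200 genes with 1 FPKM added, 155 with the mean of Anther-1 and Anther-3, 136 with a minimum of 20 FPKM and 193 with median-of-ratios scaling. The first 100 genes are all among the 200. With another low library, 11 genes (Anther-1) and 0 genes (Anther-3) passed the last ratio, and 2 were past it on the side of Anther-2 highest. The mean was below 1 FPKM for 109 to 153 genes in Ovule and 176 to 177 in Leaf when 1 library was left out. Break formation genes stood in Anther-2 at 234% with median-of-ratios scaling, against 242% without it.

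Depth limits what can be said of Ovule and Leaf: no read in Leaf allows up to 3 reads, and Leaf held fewer reads than the other tissues.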
